A study of Rattus norvegicus with 20 samples.

Results

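The genes of the giant filaments and anchoring discs of the heart sarcomere were followed in cultured rat heart cells, 9 in all: titin (Ttn), nebulin (Neb), nebulette (Nebl), alpha-actinin-2 (Actn2), LIM domain-binding protein 3 (Ldb3), myozenin-2 (Myoz2), telethonin (Tcap), cysteine and glycine-rich protein 3 (Csrp3) and myomesin-1 (Myom1). The rule that names them uses no measured value. In the deposited table all 9 were found among 15503 genes, 3 by their KEGG name, 3 by the gene of their protein accession and 3 by their protein name, and all 9 passed the filter on low counts that left 15449 genes for testing. The cells were labelled as neonatal rat cardiomyocytes. They were kept for 72 h with phosphate-buffered saline (PBS), with histidine at 100 nM, with doxorubicin at 1 µM, or with both compounds at those doses. Each of the 4 groups held 5 libraries of polyadenylated RNA. Doxorubicin, used against many cancers, poisons topoisomerase II and is known to damage heart muscle. Histidine is an amino acid, and the series concerns its plasma level in people with atrial fibrillation. The labels give no strain or age beyond neonatal, and they do not say that the 5 libraries of a group came from separate cultures. The p-values below therefore describe the spread among libraries that may be technical repeats.

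The sarcomere is the repeating contractile unit of striated muscle, bounded by Z-discs and held together in the middle by the M-band. Titin is a single protein that spans from the Z-disc to the M-band and acts as a spring, while nebulin lies along the thin filaments of skeletal muscle and is scarce in heart, where its shorter relative nebulette is found at the Z-disc. Alpha-actinin-2 crosslinks thin filaments at the Z-disc, LDB3 (also called ZASP or Cypher) and myozenin-2 bind it there, telethonin caps the Z-disc end of titin, CSRP3 (muscle LIM protein) is a Z-disc and nuclear LIM protein, and myomesin-1 links titin and myosin at the M-band.

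The promoter windows of RefSeq's rat assembly GRCr8 covered 7 of the 9 genes, Tcap and Csrp3 being without an entry. The 250 bases before the start site are shown for 4 of them: titin and Myoz2, which hold a match to the binding motif of MEF2, Ldb3, which holds a CArG box (the motif of serum response factor), and nebulin, which holds neither. Capitals mark the matches, and each window is read 5′ to 3′ on the gene's strand.
Ttn: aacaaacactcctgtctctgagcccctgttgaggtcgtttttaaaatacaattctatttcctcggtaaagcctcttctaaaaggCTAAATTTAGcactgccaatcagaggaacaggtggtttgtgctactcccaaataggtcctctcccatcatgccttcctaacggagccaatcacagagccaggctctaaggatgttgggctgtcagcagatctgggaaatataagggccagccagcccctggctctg
Myoz2: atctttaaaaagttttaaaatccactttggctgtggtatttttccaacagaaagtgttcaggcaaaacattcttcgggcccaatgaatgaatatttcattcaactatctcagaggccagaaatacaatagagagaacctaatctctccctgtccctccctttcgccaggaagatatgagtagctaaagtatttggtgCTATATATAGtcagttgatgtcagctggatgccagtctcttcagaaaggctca
Ldb3: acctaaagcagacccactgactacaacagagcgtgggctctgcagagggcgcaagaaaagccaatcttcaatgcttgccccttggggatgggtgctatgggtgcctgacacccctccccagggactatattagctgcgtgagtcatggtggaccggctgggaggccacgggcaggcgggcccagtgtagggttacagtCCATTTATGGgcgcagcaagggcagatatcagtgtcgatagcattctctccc
Neb: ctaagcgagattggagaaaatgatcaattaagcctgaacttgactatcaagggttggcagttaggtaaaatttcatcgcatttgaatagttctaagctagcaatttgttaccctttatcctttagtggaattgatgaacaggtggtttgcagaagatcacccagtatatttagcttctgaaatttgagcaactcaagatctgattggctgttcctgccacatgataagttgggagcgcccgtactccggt
In GRCr8 the titin window lies at chr3:82332111-82332360 and the Myoz2 window at chr2:213852779-213853028, with Ldb3 at chr16:9924680-9924929 and Neb at chr3:57220710-57220959, all on the minus strand. Counted from the start site, the MEF2 match stood at −166 to −157 in titin and at −53 to −44 in Myoz2. CArG boxes stood at −52 to −43 in Ldb3 and at −177 to −168 in Nebl. Of 27457 such windows in the genome, read on both strands, 0.572% held the MEF2 motif and 1.5% a CArG box. The windows of Neb, Actn2 and Myom1 held neither. No member window held the M-CAT motif (CATTCC), which 11.8% of all windows hold. The E-box (CANNTG), found in 65.2% of all windows, had 3 matches in the Neb window, 1 in titin, and 2 each in Nebl, Actn2, Myoz2 and Myom1, with none in Ldb3. A match is a run of letters and was not tested as a binding site.

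Total counts per library ran from 53246205 to 83624651. Doxorubicin replicate 4 stood apart from the rest of its group: it had the highest total, the lowest TMM factor of the 20 libraries (0.9025), and a cardiomyocyte marker sum of 345 CPM where the other 4 had 188 to 234. Levels between groups are given as counts per 1000000 reads (CPM, scaled by edgeR's TMM factors), and levels between genes as the deposited FPKM. FPKM divide by length, and the length they imply varied between libraries for Ttn, Ldb3 and Myoz2, as given below. Per length, the order in PBS was led by Actn2 at 9.23 ± 1.40 FPKM (SD, n = 5), Csrp3 at 5.64 ± 2.03 and Ldb3 at 2.59 ± 0.22. Myoz2 followed at 2.38 ± 0.52 FPKM, then Myom1 at 1.33 ± 0.17, Tcap at 1.25 ± 0.07, Ttn at 0.846 ± 0.085 and Nebl at 0.699 ± 0.064. Neb came last at 0.0057 ± 0.0045 FPKM. Neighbours whose library ranges overlapped in PBS were Actn2 and Csrp3, Ldb3 and Myoz2, Myom1 and Tcap, and Ttn and Nebl, so the order within each of these pairs is not resolved. Titin reads nevertheless made up 51.0% to 62.6% of the CPM of all 9 genes in PBS, and its transcript was the longest of the 9 by the lengths that the FPKM imply.

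With doxorubicin the order of levels per length closed up. Actn2 stayed first at 3.76 ± 0.35 FPKM (SD, n = 5) and Csrp3 next at 2.40 ± 0.81 FPKM, with overlapping libraries, while Nebl, at rank 8 in PBS, stood at rank 4 with 0.441 ± 0.118. Ttn fell to 0.199 ± 0.049 FPKM and Neb reached 0.110 ± 0.035, and the library ranges of Ttn and Neb now overlapped. From Ldb3 down to Neb every gene overlapped its neighbour too. The one neighbouring pair that did not overlap in this group was Csrp3 and Ldb3.

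**Figure D1:**
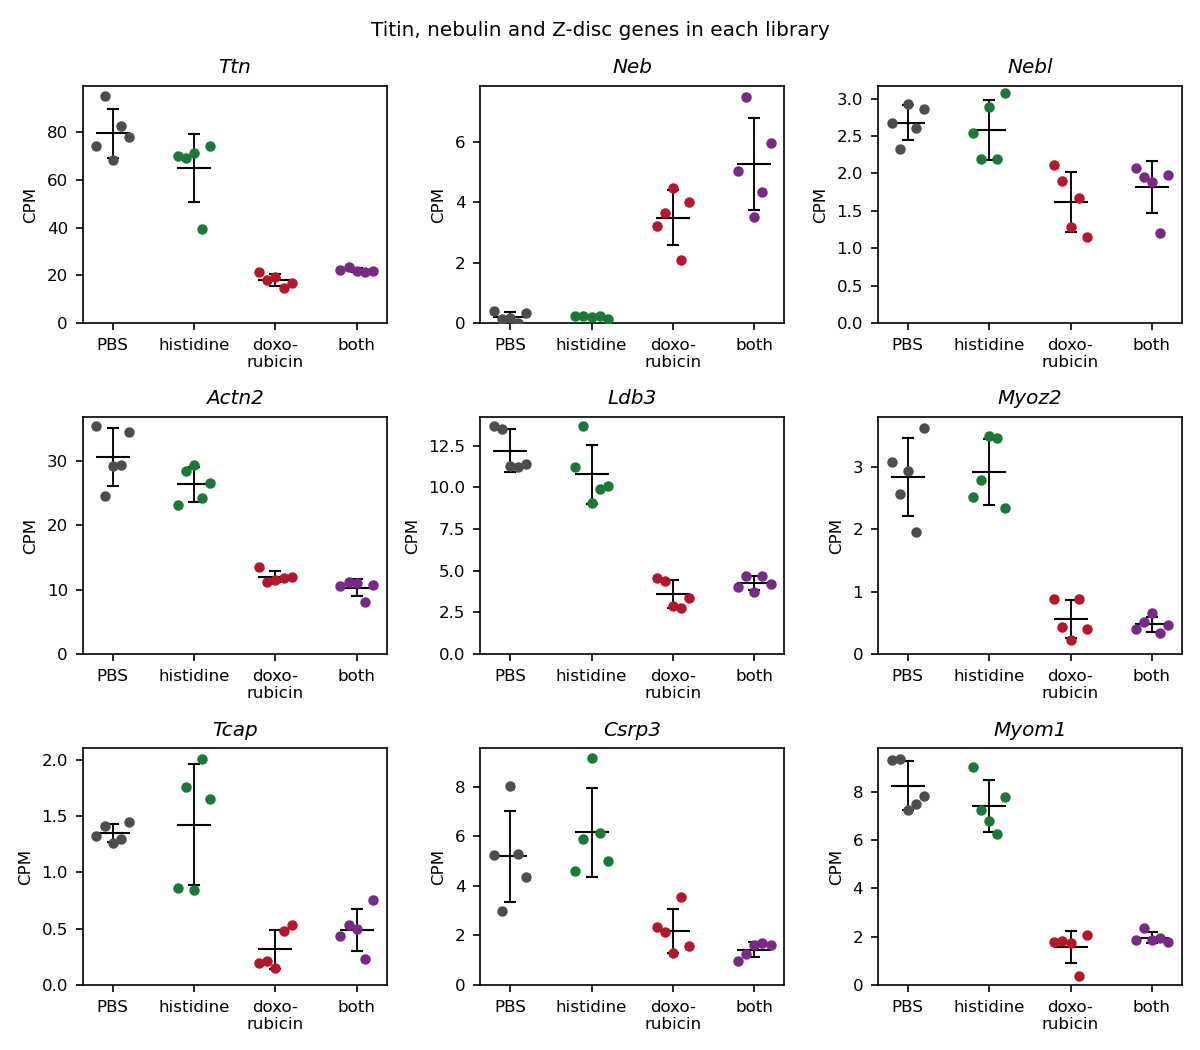
Levels of the 9 genes in each of the 20 libraries, in TMM-scaled CPM on linear axes from 0 (points are libraries, the short bar is the mean and the whiskers are 1 SD, n = 5 per group). Ttn stands at 68.2 to 95.3 CPM with PBS and at 14.6 to 21.4 with doxorubicin, and Neb alone is higher in both groups that held doxorubicin.

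Doxorubicin alone was compared with PBS to see what the drug does to these genes. Of the 9, 8 were lower and 1, nebulin, was higher, all past an adjusted p of 0.05 in edgeR's quasi-likelihood test with Benjamini-Hochberg adjustment over all genes. Of all genes tested, 43.2% passed, 21.5% lower and 21.7% higher. The median log2 fold change of the 9 was −1.77, against 0.05 for all genes tested. Without doxorubicin replicate 4 the same 9 genes passed, and the log2 fold changes of the lower ones ran from −2.55 to −0.74. Libraries of the 2 groups did not overlap for 7 of the lower genes and for nebulin, and Csrp3 was the gene whose groups overlapped. Among all genes tested the groups were apart for 17.5% of genes as lower and 13.6% as higher.

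Titin (chromosome 3, 61652439 to 61924741, minus strand, coordinates as deposited, rat build mRatBN7.2 per the submitters' processing notes) was read at 74.1, 95.3, 68.2, 82.5 and 77.9 CPM in the PBS libraries. The doxorubicin libraries held 21.4, 18.0, 19.4, 14.6 and 16.9 CPM. The lowest PBS library therefore lay far above the highest doxorubicin library. This was a log2 fold change of −2.14 ± 0.14 (SE), or a 4.41-fold lower level, with an adjusted p of 2.3e-10 by edgeR's quasi-likelihood test. Each titin value rested on at least 1006 reads.

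Nebulin (chromosome 3, 36613716 to 36811574, minus strand) had 24, 8, 12, 0 and 20 reads in the PBS libraries. It had 193, 204, 320, 158 and 279 reads with doxorubicin. In CPM this was 0.196 ± 0.155 (SD, n = 5) against 3.49 ± 0.91, and every doxorubicin library exceeded every PBS library. Nebulin's log2 fold change was 4.17 ± 0.47 (SE), with an adjusted p of 5.0e-07 in the edgeR test. On the log2(FPKM + 0.1) scale, where the added constant exceeds the PBS level, the same difference was 0.97.

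The low nebulin counts had an unusual form. All 10 libraries without doxorubicin held a whole multiple of 4 reads for Neb, with 0 included, against 2 of 5 libraries with doxorubicin and 2 of 5 with both compounds. Neb had 128 reads in total over those 10 libraries, and among 652 genes with a total of 64 to 256 reads there 1 gene, Neb, had multiples of 4 in all 10. For all values of 1 to 30 reads in the table the share of multiples of 4 was 32.9%, and for values above 1000 reads it was 25.1%. Neb was singled out here after its values were seen, and how the counts arose was not tested. The number of independent reads behind its level without doxorubicin is therefore not known.

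The skeletal muscle markers that nebulin usually accompanies gave little to compare. Of 12 listed genes only Acta1 and Tnnt3 were measured, and genes such as Myod1 and Myog were not analysed here. The sum of Acta1 and Tnnt3 was 9.88 to 11.8 CPM in PBS and 7.25 to 11.5 CPM with doxorubicin. Neither passed the edgeR test in this comparison, with log2 fold changes of −0.28 ± 0.15 (SE) and −0.12 ± 0.17. The nearest gene of the table is Rif1, a telomere and replication-timing gene on the opposite strand 10098 bases away, whose log2 fold change was −0.80, opposite in sign to that of Neb.

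The shorter relative nebulette (Nebl, chromosome 17, 80118543 to 80466210, minus strand) was read at 2.67, 2.33, 2.93, 2.61 and 2.86 CPM in PBS and at 2.11, 1.90, 1.29, 1.67 and 1.15 CPM with doxorubicin. The groups were apart by a narrow gap. Its log2 fold change of −0.72 ± 0.18 (SE) was the smallest in size of the 9, with an adjusted p of 0.0030 in the edgeR test. The deposited protein name of this gene is the LIM zinc-binding form of nebulette, and the counts are per gene, so isoforms are not separated.

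Among the Z-disc genes, Actn2 (chromosome 17, 58142625 to 58210622, plus strand) was read at 35.5, 24.5, 29.3, 29.4 and 34.5 CPM in PBS. With doxorubicin it held 13.6, 11.2, 11.6, 11.8 and 12.0 CPM, an even set of libraries well under the PBS range. Actn2 had a log2 fold change of −1.35 ± 0.11 (SE; adjusted p = 3.8e-09, edgeR).

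Ldb3 (chromosome 16, 9855927 to 9918532, minus strand) ran from 11.2 to 13.7 CPM in PBS, at 13.7, 13.5, 11.3, 11.2 and 11.4. In the doxorubicin libraries it held 4.58, 4.40, 2.91, 2.74 and 3.35 CPM. The groups stayed well apart. Ldb3 had a log2 fold change of −1.77 ± 0.15 (SE; adjusted p = 6.6e-09, edgeR).

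Myoz2 (chromosome 2, 211141463 to 211168221, minus strand), which tethers calcineurin to the Z-disc, was at 3.07, 2.57, 2.93, 1.95 and 3.62 CPM in PBS. It was at 0.880, 0.429, 0.224, 0.875 and 0.404 CPM with doxorubicin. The drug-treated libraries varied widely among themselves yet all lay under the lowest PBS library, and the lowest of them rested on 16 reads. For Myoz2 the log2 fold change was −2.33 ± 0.30 (SE; adjusted p = 3.4e-06, edgeR).

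Tcap (chromosome 10, 83381719 to 83382887, plus strand) was steady in PBS at 1.33, 1.41, 1.26, 1.30 and 1.45 CPM. Doxorubicin libraries held 0.199, 0.215, 0.154, 0.477 and 0.534 CPM, of which 3 rested on 11 or 12 reads. Its log2 fold change was −2.08 ± 0.37 (SE; adjusted p = 0.00013, edgeR). The whole of Tcap, 1169 bases, lies within the deposited span of Stard3 on the same strand. Stard3, a cholesterol-binding protein of late endosomes, was at 42.7 CPM in PBS and 40.2 CPM with doxorubicin, so its own log2 fold change was −0.09.

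Csrp3 (chromosome 1, 98528068 to 98546653, minus strand) varied more within PBS than any other member except Neb, at 5.24, 2.99, 8.04, 5.30 and 4.36 CPM. It was at 2.33, 2.13, 1.29, 3.55 and 1.57 CPM with doxorubicin. Replicate 4 of the drug group, at 3.55, lay above PBS replicate 2, at 2.99, and that pair alone made the groups overlap. Its log2 fold change was −1.25 ± 0.28 (SE; adjusted p = 0.0012, edgeR).

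At the M-band, Myom1 (chromosome 9, 110915943 to 111039344, plus strand) was read at 9.34, 9.37, 7.23, 7.51 and 7.84 CPM in PBS. The doxorubicin libraries held 1.79, 1.82, 1.75, 0.384 and 2.06 CPM. Replicates 1, 2, 3 and 5 were close together and replicate 4, with 29 reads, stood apart at the low end. The log2 fold change of −2.40 ± 0.27 (SE; adjusted p = 5.4e-07, edgeR) was −2.15 without that library. Myom1 shares 638 bases with an opposite-strand gene for a myosin regulatory light chain (RLC-A), and the library procedure does not mark strand. That neighbour was at 608 CPM in PBS and 599 CPM with doxorubicin.

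Markers of other cell types were read in the same libraries. The 15 measured of 16 cardiomyocyte markers, none of them a member, summed to 1036 to 1154 CPM in PBS and 188 to 345 CPM with doxorubicin, or at most 234 CPM without replicate 4. Of the 15, 12 were lower and 0 higher, with a median log2 fold change of −2.09. The 8 measured macrophage and leukocyte markers summed to 648 to 681 CPM in PBS and 30.7 to 37.4 CPM with doxorubicin, with 7 lower and 0 higher. Of 10 fibroblast markers 4 were lower, 2 were higher (Dcn, at 0.93 on the log2 scale, and Thy1, at 0.32) and 4 did not pass. Their sum, 74775 to 82205 CPM in PBS and 32151 to 56460 CPM with doxorubicin, was made up mostly of the collagen genes Col1a1, Col1a2 and Col3a1, at 77852 CPM together in PBS. In PBS the fibroblast sum thus far exceeded the cardiomyocyte sum, in cultures labelled as cardiomyocytes. The share of cardiomyocytes among the cells was not measured. The 9 measured smooth muscle and pericyte markers had 8 lower and 0 higher (7653 to 8940 and 2807 to 6053 CPM), and the 7 endothelial markers 5 lower and 1 higher (18.5 to 29.0 and 12.3 to 20.9 CPM). The higher endothelial gene, Tek, went from 7.39 to 13.4 CPM and made up most of the sum with doxorubicin. The 5 lower ones were Pecam1 (−2.01 on the log2 scale), Cdh5 (−3.95), Kdr (−2.56), Tie1 (−3.94) and Erg (−1.94). Epicardial and mesothelial markers, 6 measured, had 3 higher and 1 lower, and their sum went from 110 to 150 CPM in PBS to 150 to 171 CPM with doxorubicin. Upk1b, at 4.52 on the log2 scale, went from 1.56 to 35.9 CPM. The other higher genes were Wt1 (0.34) and Tbx18 (0.31), and the lower one, Lrrn4, went from 27.2 to 11.5 CPM. In bulk RNA fewer cells of a type and less RNA per cell cannot be told apart, and the part of cell makeup in the members' changes was not tested.

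The other genes of the sarcomere's discs and bands, 43 measured of 47 in 4 lists, were mostly lower or unresolved: 23 were lower, 3 higher and the rest did not pass, with a median log2 fold change of −0.38. Of the nebulin family, Nrap, a nebulin relative of developing myofibrils and intercalated discs, fell from 5.37 ± 0.56 CPM (SD, n = 5) to 1.10 ± 0.55, and the actin-binding Lasp1 had a log2 fold change of −0.01 ± 0.06 (SE). Lasp1, at 333 CPM in PBS, is also made by many cells outside muscle. Many other genes of the 4 lists also stood far above Actn2, itself at 30.6 CPM in PBS. The cell types behind the reads of these lists were not told apart.

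Of 4 other M-band genes 3 were lower. Myom2, the fast-fibre and adult-heart myomesin, fell by 2.30 ± 0.51 (SE) on the log2 scale. Its level was low, at 1.58 ± 0.25 CPM (SD, n = 5) in PBS and 0.322 ± 0.256 with doxorubicin. Obsl1, a cytoskeletal adaptor protein, fell by 0.79 ± 0.10 (SE), from 164 to 95.2 CPM. Myom3 had a log2 fold change of −0.22 ± 0.25 (SE), short of the threshold.

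Among 27 measured of 31 other Z-disc and I-band genes 13 were lower and 1 higher. Synpo2l, an actin- and actinin-binding Z-disc protein, fell by 2.17 on the log2 scale. Desmin (Des), the intermediate filament that ties Z-discs together, fell by 2.00, from 123 ± 14.1 CPM (SD, n = 5) to 30.7 ± 4.9. Des is also counted among the smooth muscle and pericyte markers above. Xirp2, an actin-bundling repeat protein, fell by 1.99 and Ankrd1, a stress-responsive titin-binding protein, by 0.87. The higher gene was Cryab, a small heat shock protein that binds desmin and titin, at 0.39 ± 0.12 (SE) on the log2 scale.

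Of 10 genes for splicing, folding and turnover of sarcomere proteins 6 were lower and 2 higher. The ubiquitin ligase genes Trim55 and Fbxo32 fell by 1.98 and 1.51 on the log2 scale, and the myosin chaperone Unc45b by 1.38. Bag3, a co-chaperone of Z-disc protein clearance, rose from 64.4 ± 5.1 CPM (SD, n = 5) to 103.9 ± 9.0. Capn3, a titin-bound protease of skeletal muscle, rose from 0.258 ± 0.193 to 0.857 ± 0.252 CPM.

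**Figure D2:**
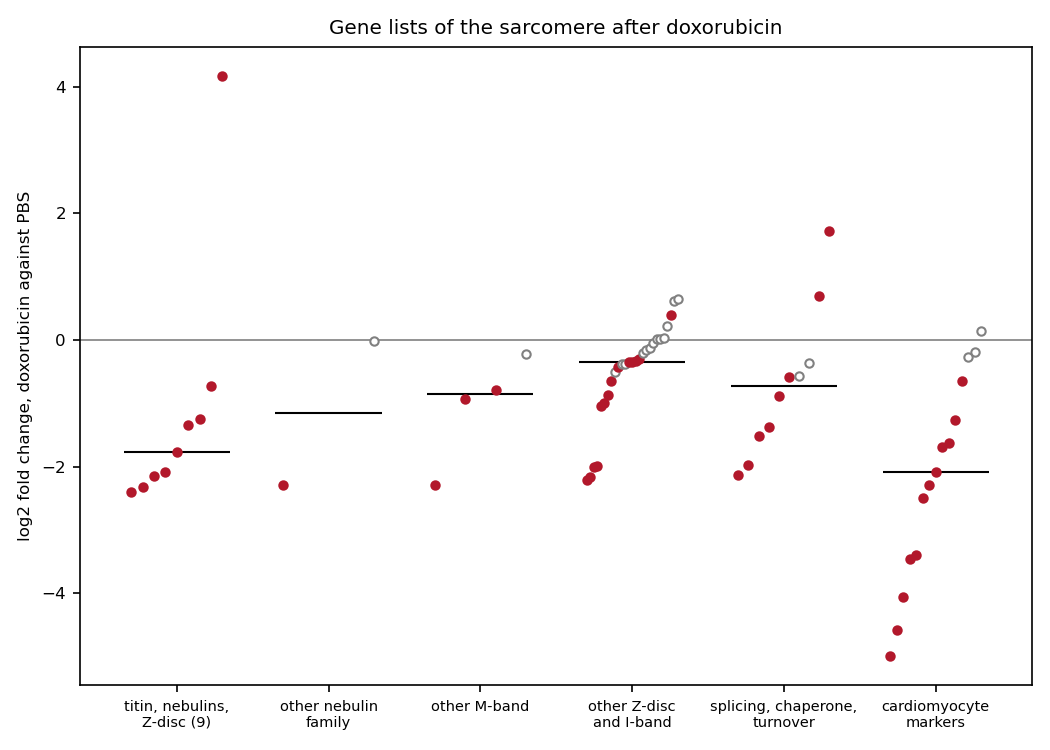
Log2 fold change of doxorubicin against PBS (vertical axis) for the 9 genes, for 4 lists of other sarcomere genes and for cardiomyocyte markers; each point is a gene, filled where it passed an adjusted p of 0.05, and the black line is the list's median. The 9 genes have a median of −1.77 with Neb alone at the top, and the 27 other Z-disc and I-band genes spread from −2.22 to 0.64.

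The drug's effect was measured again in the presence of histidine, as both compounds against histidine, which shares no library with the comparison above. Of the 9 genes 8 were lower and nebulin was higher, all past the edgeR threshold that 40.2% of genes passed, 20.3% lower and 19.9% higher. All 9 genes had groups that did not overlap, against 18.7% of genes as lower and 16.5% as higher over the table. The median log2 fold change of the 9 was −1.54, against 0.01 for all genes.

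Titin was at 70.1, 69.1, 71.1, 39.5 and 74.1 CPM with histidine and at 22.1, 23.4, 21.7, 21.5 and 22.0 CPM with both compounds. The libraries with both compounds were nearly level, and histidine replicate 4 lay well below its group. Titin's log2 fold change was −1.55 ± 0.14 (SE; adjusted p = 2.2e-08, edgeR).

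Nebulin had 16, 12, 12, 16 and 8 reads with histidine and 372, 453, 225, 304 and 387 with both compounds. The smallest count with both compounds was thus many times the largest with histidine. Its log2 fold change was 4.64 ± 0.48 (SE; adjusted p = 1.5e-07, edgeR).

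Nebl was at 2.53, 2.20, 2.89, 2.19 and 3.07 CPM with histidine and at 2.08, 1.95, 1.89, 1.20 and 1.98 CPM with both compounds. The groups were apart by a narrow gap. The log2 fold change was −0.50 ± 0.18 (SE; adjusted p = 0.032, edgeR). That call was lost without both-compound replicate 4 (adjusted p = 0.090, edgeR) and without histidine replicate 1 (0.0501), 3 (0.069) or 5 (0.083).

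Of the remaining Z-disc and M-band genes, Myoz2 went from 2.92 ± 0.53 CPM (SD, n = 5) to 0.474 ± 0.120, a log2 fold change of −2.62 ± 0.31 (SE). Csrp3, at 4.60, 5.91, 9.15, 6.14 and 4.98 CPM with histidine, was at 0.950, 1.26, 1.62, 1.70 and 1.61 with both compounds. Here the Csrp3 groups stood clear of each other, and the log2 fold change was −2.11 ± 0.29 (SE).

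Actn2 went from 26.4 ± 2.7 CPM (SD, n = 5) to 10.3 ± 1.3, a log2 fold change of −1.35 ± 0.11 (SE). Ldb3 went from 10.8 ± 1.8 to 4.27 ± 0.44 CPM (−1.34 ± 0.15) and Myom1 from 7.42 ± 1.06 to 1.97 ± 0.24 CPM (−1.91 ± 0.27). Tcap was at 0.859, 1.76, 0.841, 2.01 and 1.65 CPM with histidine, a wider spread than in PBS, and at 0.434, 0.529, 0.499, 0.229 and 0.756 with both compounds. Its log2 fold change was −1.54 ± 0.36 (SE).

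Over the 4 lists 21 of 43 genes were lower and 3 higher in this comparison. The higher ones were Bag3 (log2 fold change 0.71 ± 0.07, SE), Capn3 (1.67 ± 0.49) and Mypn (1.44 ± 0.38), the gene of myopalladin, a Z-disc and I-band protein that reached 0.833 CPM. Cryab, at 0.16 ± 0.12 (SE), did not pass. Cardiomyocyte markers were lower for 15 of 15, and their sum went from 951 to 1088 CPM with histidine to 192 to 230 CPM with both compounds. Of the skeletal muscle pair Tnnt3 was higher, at 4.73 ± 0.66 CPM (SD, n = 5) against 3.37 ± 0.29, and Acta1 did not pass.

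**Figure D3:**
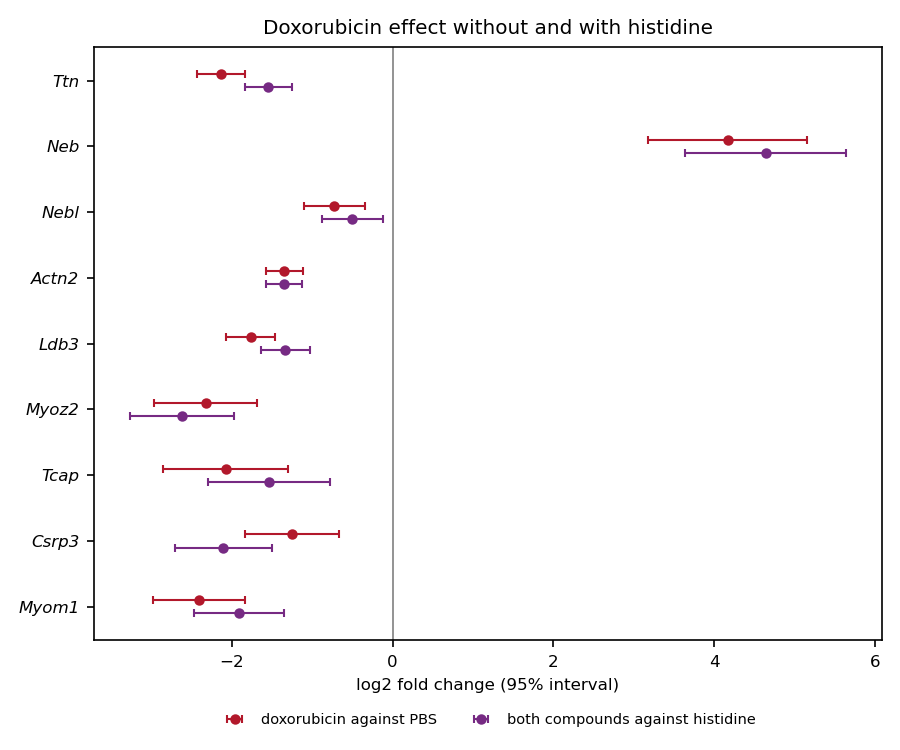
Log2 fold change with its 95% interval (horizontal axis) for each gene, doxorubicin against PBS in red and both compounds against histidine in purple. In both comparisons 8 intervals lie below 0 and that of Neb lies above 3.

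Both compounds against PBS uses libraries of both comparisons and adds no separate evidence. Its log2 fold changes were −1.85 for Ttn, 4.76 for Neb, −0.56 for Nebl, −1.57 for Actn2, −1.52 for Ldb3, −2.58 for Myoz2, −1.46 for Tcap, −1.86 for Csrp3 and −2.07 for Myom1. All 9 passed the edgeR test, 8 lower and 1 higher, where 39.9% of all genes did, 20.7% lower and 19.2% higher. Groups were apart for all 9, against 20.4% of genes as lower and 17.6% as higher. The Nebl call was lost without both-compound replicate 4 (adjusted p = 0.0517, edgeR) and with limma on log2(FPKM + 0.1) and log2(FPKM + 1) (0.0751 and 0.0524).

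Whether the genes moved by unequal amounts was asked within libraries, from the log2 ratio of each gene's reads to titin's. Across 8 genes and both drug comparisons 16 ratios were tested with exact two-sided permutation tests of 5 libraries against 5, which cannot go below p = 0.00794, and 7 passed after Benjamini-Hochberg adjustment. Because titin itself fell, a higher ratio means a smaller fall than titin's, or a rise.

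Neb gained most on titin. Its ratio was 7.06 higher on the log2 scale with doxorubicin than with PBS and 6.09 higher with both compounds than with histidine (exact permutation p = 0.00794, adjusted p = 0.0212, in each). PBS replicate 4, with 0 reads set to a count of 0.5, lowered the PBS mean, and without it the difference was 6.02 (exact permutation adjusted p = 0.0363).

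The ratio of Nebl to titin was −4.88 ± 0.30 (SD, n = 5) in PBS and −3.49 ± 0.36 with doxorubicin, a gain of 1.39 (exact permutation adjusted p = 0.0212). With both compounds it was 1.00 higher than with histidine (exact permutation adjusted p = 0.0212). In each case all 5 drug-treated libraries lay above all 5 others. Actn2 gained 0.80 on titin with doxorubicin alone (exact permutation adjusted p = 0.0212) and 0.16 in the presence of histidine (exact permutation adjusted p = 0.469).

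Myoz2 lost ground to titin in the presence of histidine, by 1.11 (exact permutation adjusted p = 0.0212), and differed by −0.32 with doxorubicin alone (exact permutation adjusted p = 0.599). Histidine replicate 4, low in titin, held the highest ratio of its group for every gene, with Myoz2 at −3.51. Without that library the difference in the presence of histidine was −0.87 for Myoz2 and 0.30 for Actn2. Myom1 lost 0.39 in the presence of histidine (exact permutation adjusted p = 0.0363). That call ended when any of histidine replicates 1, 2, 4 and 5 or both-compound replicates 1, 3, 4 and 5 was left out (exact permutation adjusted p = 0.0726 each). The smallest p possible is larger for 4 libraries against 5, so these losses do not by themselves show a weaker difference. The Myom1 call was also lost with every library kept, when the ratio was taken from FPKM + 0.01 (−0.35, exact permutation adjusted p = 0.0544). With single libraries left out the Myom1 difference ran from −0.47 to −0.28. The other 9 ratios did not pass: those of Ldb3, Tcap and Csrp3 in both comparisons, Myoz2 and Myom1 with doxorubicin alone, and Actn2 with histidine present. Whether a ratio's shift differed between the 2 comparisons was not tested.

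**Figure D4:**
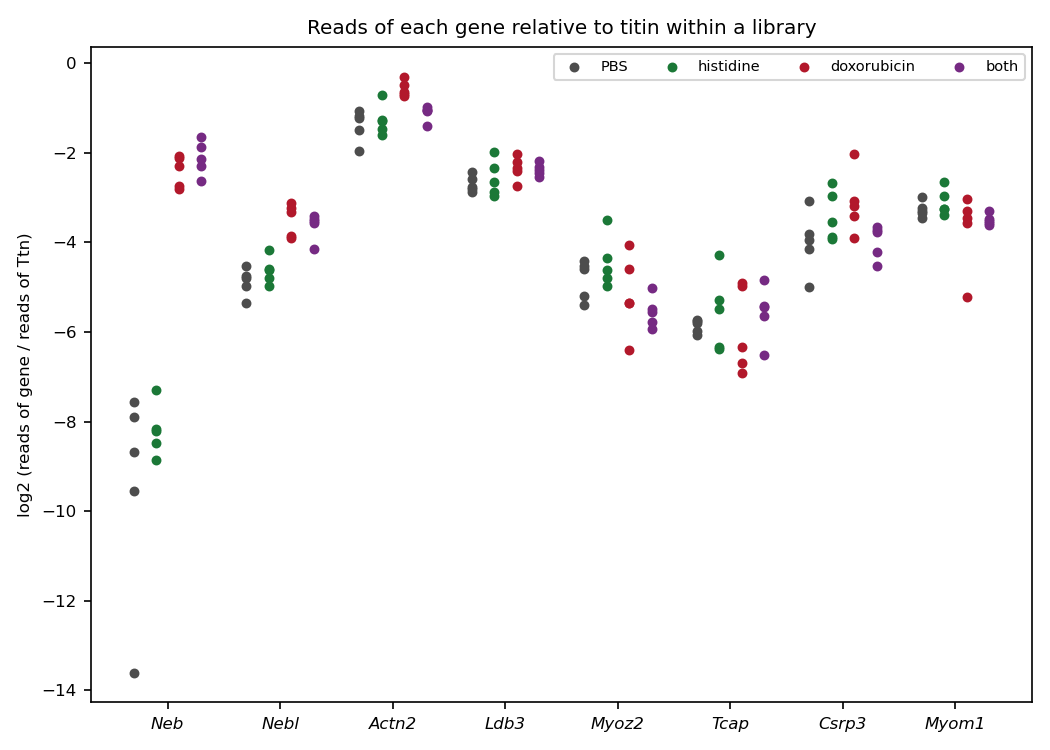
Log2 ratio of each gene's reads to titin's reads (vertical axis) in every library, by gene and group (points are libraries, 5 per group). Neb lies at −7.30 or below without doxorubicin and between −2.80 and −1.64 with it, and Nebl is higher in both groups that held the drug.

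The deposited reads and FPKM do not give titin the same fold in every library. Dividing a gene's reads by its FPKM and by the library total gives the length that the FPKM assumed, and for titin this ran from 78.3 to 103 kb over the doxorubicin libraries and from 86.0 to 94.5 kb in PBS. For Csrp3 it stayed between 0.890 and 0.902 kb in all 20 libraries, while for Myoz2 it ran from 1.02 to 1.41 kb and for Ldb3 from 4.27 to 5.31 kb. Lengths of Ttn in the groups overlapped, and their part in the FPKM differences was not tested.

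Histidine alone was compared with PBS, and histidine added to doxorubicin with doxorubicin alone, to see whether the amino acid changes these genes. None of the 9 passed in either comparison or in the interaction, which asks whether the doxorubicin effect differs with histidine. In edgeR 0 of 15449 genes passed (0.0%) in each of the 3. At an unadjusted p under 0.05 there were 312, 1940 and 1060 genes, and DESeq2 called 5, 20 and 15. With no effect on any gene a share of about 0.05 of the 15449 would be under that p. The count of 312 lies below this share, and 1940 and 1060 lie above it. Groups of libraries were apart for 0 of the 9 genes in histidine against PBS, where 0.395% of all genes were apart as higher and 0.447% as lower.

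Titin with histidine had a log2 fold change of −0.30 ± 0.14 (SE; unadjusted p = 0.042, adjusted p = 1.0, edgeR) against PBS. Without histidine replicate 4, at 39.5 CPM, it was −0.16. With both compounds titin was 0.29 ± 0.14 (SE) higher than with doxorubicin alone (unadjusted p = 0.045, adjusted p = 0.39, edgeR), and the 5 libraries of 21.5 to 23.4 CPM all lay above the 5 of 14.6 to 21.4 CPM, by a very narrow gap. In FPKM these titin libraries overlapped, at 0.231 to 0.294 with both compounds and 0.128 to 0.241 with doxorubicin. Among all genes tested 0.563% had groups apart in that direction and 0.492% in the other, and titin was the one member whose groups did not overlap in CPM. The interaction for titin was 0.59 ± 0.19 (SE), the smallest unadjusted p of the 9 at 0.0065, with an adjusted p of 0.63 in edgeR. With single libraries left out the titin interaction ran from 0.46 to 0.66.

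For the others the intervals bound what was not resolved. Histidine against PBS gave 95% intervals of −0.44 to 0.01 for Actn2, −0.48 to 0.12 for Ldb3 and −0.43 to 0.32 for Nebl on the log2 scale. Those of the sparse genes were wide, from −0.93 to 1.17 for Neb and from −0.65 to 0.80 for Tcap. Csrp3 was at 1.43 ± 0.32 CPM (SD, n = 5) with both compounds against 2.17 ± 0.88 with doxorubicin, a log2 fold change of −0.61 ± 0.28 (SE; unadjusted p = 0.045, adjusted p = 0.40, edgeR). Neb was at 5.27 ± 1.54 CPM with both compounds against 3.49 ± 0.91, with overlapping libraries and an interval of −0.22 to 1.41. An adjusted p above the threshold does not show that histidine left these genes unaltered.

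**Figure D5:**
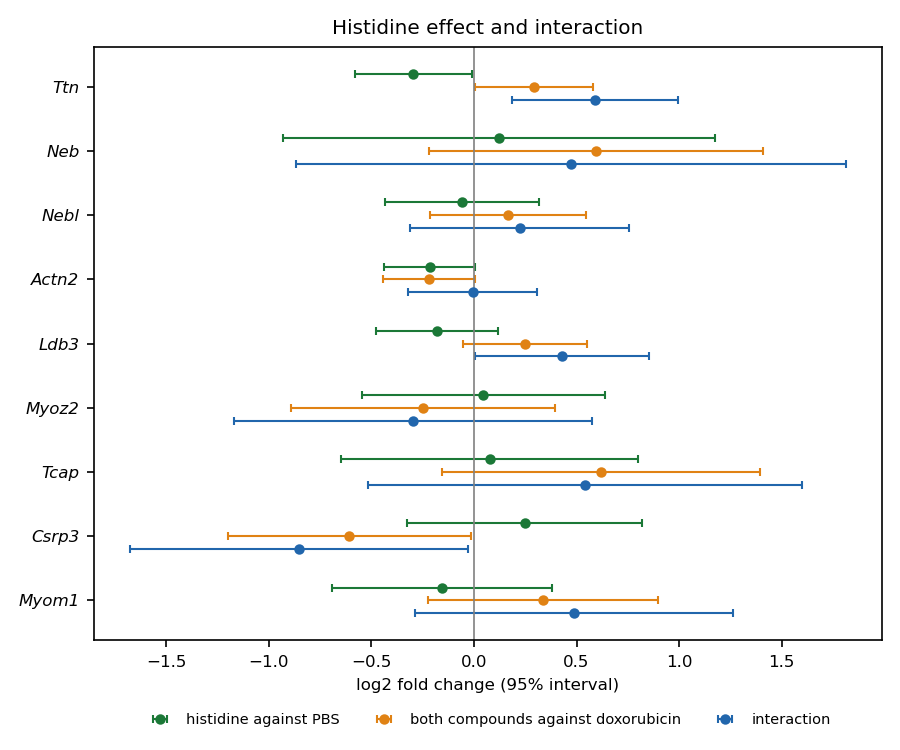
Log2 fold change with its 95% interval (horizontal axis) for each gene, histidine against PBS in green, both compounds against doxorubicin in orange and the interaction in blue. The intervals are unadjusted; those for Ttn lie off 0 in all 3, and no gene passed after adjustment over 15449 genes.

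Genes most like titin and nebulin in their pattern were sought among 9365 genes with a symbol and a mean of at least 1 CPM, by Pearson's r of log2 CPM. Over the 20 libraries, which share the group differences, titin was most like Lrp4 (r = 0.98), followed by Nsd2, Madd, Scarb1 and Rad54l (0.98 each). Nebulin was most like Npnt and Slc4a11 (r = 0.97 each), then Galnt13, Kitlg and Bmp3 (0.96 each). Galnt13, for example, went from 1.62 CPM in PBS to 19.6 CPM with doxorubicin.

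Once each library was set against its group mean, titin was most like Pja2 (r = 0.91), Farp2 (0.88), Vps13d (0.84), Crebbp (0.83) and Nsf (0.83), and nebulin like Atf2 (0.89), Bcl2l13 (0.83), Slc4a11 (0.80), Tns3 (0.79) and Tfg (0.79). Among the members, titin followed Ldb3 with r = 0.96 over the 20 libraries and 0.35 within groups, and Myom1 with 0.94 and 0.46. For titin and Tcap the values were 0.80 and −0.42, and for Csrp3 and Myom1 0.67 and −0.59. Within groups r between members ran from −0.59 to 0.57. All these values of r are descriptions over 20 libraries that share their groups.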

How the data were processed

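RNA sequencing counts of 20 libraries in 4 groups were taken from the deposited table, which holds raw whole-number counts for each gene beside FPKM values that the authors computed, per the file headers. Polyadenylated RNA was selected with oligo(dT) beads and the libraries do not keep strand, per the labels' protocols. The submitters' processing notes name Trimmomatic and mRatBN7.2. Aligner, counting program and annotation were not given in the sources used here. 0 columns were without a sample.

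Counts were filtered (filterByExpr), scaled by TMM and tested with edgeR 4.0.16 in R 4.3.3, in 1 fit of the 4 groups over 20 libraries, with Benjamini-Hochberg adjustment over 15449 genes at 0.05. The SE is the log2 fold change divided by the square root of F. Alternatives used DESeq2 1.42.0, limma 3.58.1 on log2(FPKM + 0.1) and log2(FPKM + 1), other scaling factors, no filter, and left-out libraries. Ratios to titin used reads + 0.5. The test script was tested on simulated data. Total counts per library were 53246205 to 83624651, and intervals cover the spread between libraries.

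The members and gene lists were chosen with earlier results of these data known. All 9 members are named, up to 4 genes per list with the smallest p in doxorubicin against PBS, list genes that passed against most of their list, and the 5 genes most like Ttn and Neb. A gene that this rule took is not reported here. Symbols came from the table and RefSeq, and 10310 genes had one. Genes of the lists without a match were not analysed here.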

Additional observations from a re-analysis of the deposited data

Results flagged for a closer look

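Among 36 sets of 5 libraries (9 genes in 4 groups), 5 held a library far from the rest, its gap to the nearest library being over 0.71 of the group's range. Chance marks about 1 in 20 such sets.

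Titin in histidine replicate 4 was the lowest of its group at 39.5 CPM, the other 4 being at 69.1 to 74.1 CPM. Nebl in replicate 4 of the group with both compounds was the lowest at 1.20 CPM, and Actn2 in the same library was also the lowest at 8.11 CPM. Myom1 in doxorubicin replicate 4 was the lowest at 0.384 CPM. Myom1 in replicate 2 with both compounds was the highest at 2.38 CPM.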

How the results depend on the processing

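The counts of members past the test stayed at 8 lower and 1 higher for doxorubicin against PBS in all 19 alternatives, including the fits without doxorubicin replicates 3 and 4. They stayed at 0 in histidine against PBS, in both compounds against doxorubicin and in the interaction. With histidine present, and for both compounds against PBS, 7 rather than 8 were lower wherever Nebl was lost. Limma on log2(FPKM + 0.1) and log2(FPKM + 1) lost Nebl in both compounds against histidine (adjusted p = 0.110 and 0.0812) and against PBS (0.0751 and 0.0524), and the latter was also lost without both-compound replicate 4 (0.0517). These scales shrink low genes, with Neb at 0.97 and 0.14 for doxorubicin against PBS. Directions reversed for changes near 0: Myoz2 with histidine against PBS was −0.073 and −0.054 on those FPKM scales, the Actn2 interaction was 0.0077 with upper-quartile factors and 0.0146 on log2(FPKM + 1), and the ratio of Tcap to titin with histidine present was 0.0153 on FPKM. With single libraries left out, histidine against PBS ran from −0.21 to 0.51 for Neb, −0.063 to 0.151 for Myoz2 and −0.083 to 0.217 for Tcap, and the Actn2 interaction from −0.063 to 0.071. The ratio of Tcap to titin ran from −0.356 to 0.143 for doxorubicin against PBS and from −0.223 to 0.301 for both compounds against histidine, and that of Ldb3 passed without doxorubicin replicate 3 (0.45, exact permutation adjusted p = 0.0317).

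For each gene, the group mean of log2 CPM was subtracted from every library. Over all genes, these deviations correlated at −0.077 to 0.193 between same-numbered libraries of 2 groups, with 2 of 30 pairs over 0.1. The highest value was that of PBS and histidine replicate 3. The fibroblast marker sum was lowest in replicate 3 of PBS (74775 CPM), of histidine (59146) and of doxorubicin (32151), but in replicate 2 with both compounds. Whether replicate numbers mark a shared preparation was not tested. A replicate block changed no member's call and gave 6579 rather than 6673 genes for doxorubicin against PBS. Depth limits Neb without doxorubicin (0 to 24 reads) and Tcap and Myoz2 with it (from 11 and 16 reads).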
